A study of Mus musculus with 2 samples.

Results

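The 9 genes described here, F3, Tfpi, Thbd, Procr, Vwf, Selp, Plat, Plau and Serpine2, start, restrain and dissolve blood clots. They were chosen by symbol among 31054 features, after earlier results on these data had shown them to differ between cell classes, so their levels by class are given as a description without a test. All 9 symbols were found once in each library. The cells came from the bladder of 1 male mouse aged 25 months, carrying p16-CreERT2/R26-LSL-tdTomato. In this mouse tamoxifen lets a Cre recombinase driven by p16 switch on the red reporter tdTomato, so the reporter marks cells in which that driver was active, and their descendants. Tamoxifen was given for 5 days and the bladder was taken 2 weeks later. CD45-negative, DAPI-negative cells, so neither leukocytes nor dead cells by the sort, were divided by fluorescence into a Tom+ library and a Tom- library, each sequenced as droplet-based single-cell RNA. Both libraries share the mouse, its age, its genotype and the drug.

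Each group is therefore 1 library from the same mouse, with no replicate check, and no p-value is given. Intervals are exact 95% intervals that cover counting error only. Levels are CPM, the count of a gene scaled to 1000000 UMIs (being the molecular tags that the assay counts), summed over the cells of a class. The Tom+ library held 34455896 UMIs over 2783 barcodes and the Tom- library 197232860 UMIs over 13551 barcodes. The libraries shared 966 barcodes, 34.7% of those of Tom+ and 7.13% of those of Tom-. Barcodes found in both were left out of the values given. After filtering, 1537 Tom+ cells with a median of 11227 UMIs and 9245 Tom- cells with a median of 13531 UMIs remained. The reporter was counted at 1305 CPM in Tom+ against 33.8 CPM in Tom-. Free RNA differed between the libraries: the summed level of 5 erythroid markers in fibroblast-like cells was 47.1 CPM in Tom+ against 474 CPM in Tom-, and the part of such RNA in the results was not tested beyond the removal of 5% of the library profile.

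Clotting starts when tissue factor, the product of F3, meets plasma factor VII outside the vessel, and tissue factor pathway inhibitor (Tfpi) blocks that complex. Thrombomodulin (Thbd) turns thrombin into an activator of protein C, and the endothelial protein C receptor (Procr) presents protein C to it. Von Willebrand factor (Vwf) tethers platelets, and P-selectin (Selp) lies with it in the storage granules of endothelium and binds leukocytes once it reaches the surface. Tissue plasminogen activator (Plat) and urokinase (Plau) make plasmin, which digests fibrin. Protease nexin 1 (Serpine2) inhibits thrombin, urokinase and plasmin. Vessel walls classically keep tissue factor in the cells around the vessel and thrombomodulin on the endothelium that faces the blood.

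F3 was counted mostly in cells of the stroma and Selp mostly in venous-like endothelium, and their promoters are shown as those of 2 members with contrasting patterns. Of the 9 genes, 5 had a promoter in the RefSeq table for GRCm38.p6, which covers 250 bases before and 50 bases after a start. The F3 window lies on the plus strand at chr3:121723287-121723586 and the Selp window on the plus strand at chr1:164115014-164115313. Capitals mark matches, on either strand, to GGGCGG (the GC box), TGANTCA (a loose form of the AP-1 site, N being any base) or TATAAA. None of these matches overlapped another in either window.

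F3: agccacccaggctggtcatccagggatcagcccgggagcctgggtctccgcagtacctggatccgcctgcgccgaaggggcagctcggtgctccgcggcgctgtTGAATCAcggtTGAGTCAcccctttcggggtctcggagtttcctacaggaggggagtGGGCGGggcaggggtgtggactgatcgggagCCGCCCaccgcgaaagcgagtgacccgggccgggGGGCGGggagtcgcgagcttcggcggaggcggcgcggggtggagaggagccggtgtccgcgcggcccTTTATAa
Selp: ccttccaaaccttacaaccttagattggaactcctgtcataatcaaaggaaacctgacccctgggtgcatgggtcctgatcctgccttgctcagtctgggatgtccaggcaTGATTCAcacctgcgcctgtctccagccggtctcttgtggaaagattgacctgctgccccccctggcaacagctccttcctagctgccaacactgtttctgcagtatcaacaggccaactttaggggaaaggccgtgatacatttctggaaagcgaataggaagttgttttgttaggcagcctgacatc

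The F3 window held 3 GC boxes, 2 AP-1 matches and 1 TATAAA match after the start, while the Selp window held 1 AP-1 match and neither of the others. Over the 32817 promoters of the table, 35.6% held a GC box, 7.81% an AP-1 match and 13.6% a TATAAA match. Among the other windows, that of Procr held 1 AP-1 match and no GC box, that of Serpine2 held 6 GC boxes, and both windows of Tfpi held 1 GC box each. CACGTG and AGATAA were also searched on both strands, and were found in 7.15% and 11.2% of all promoters. Neither occurred in the F3 or Selp window. A match is a run of letters and not a measured binding site.

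Cells were grouped without use of the 9 genes and named from marker lists. The classes compared between libraries, in Tom+ and Tom- cells, were fibroblast-like (694 and 5107), umbrella urothelial-like (321 and 1293), basal or intermediate urothelial-like (131 and 602), blood endothelial-like (155 and 665), lymphatic endothelial-like (89 and 193) and mesothelial-like (84 and 732). Smooth muscle-like, Schwann-like, erythroid-like and prostate or seminal vesicle-like cells numbered at most 1 in Tom+ and are described by level alone. The plot of levels by class shows Vwf and Selp led by the blood endothelium, F3 by Schwann-like and fibroblast-like cells, and Thbd shared by blood endothelium and fibroblast-like cells, while Plau and Serpine2 were highest in prostate or seminal vesicle-like cells.

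**Figure D1:**
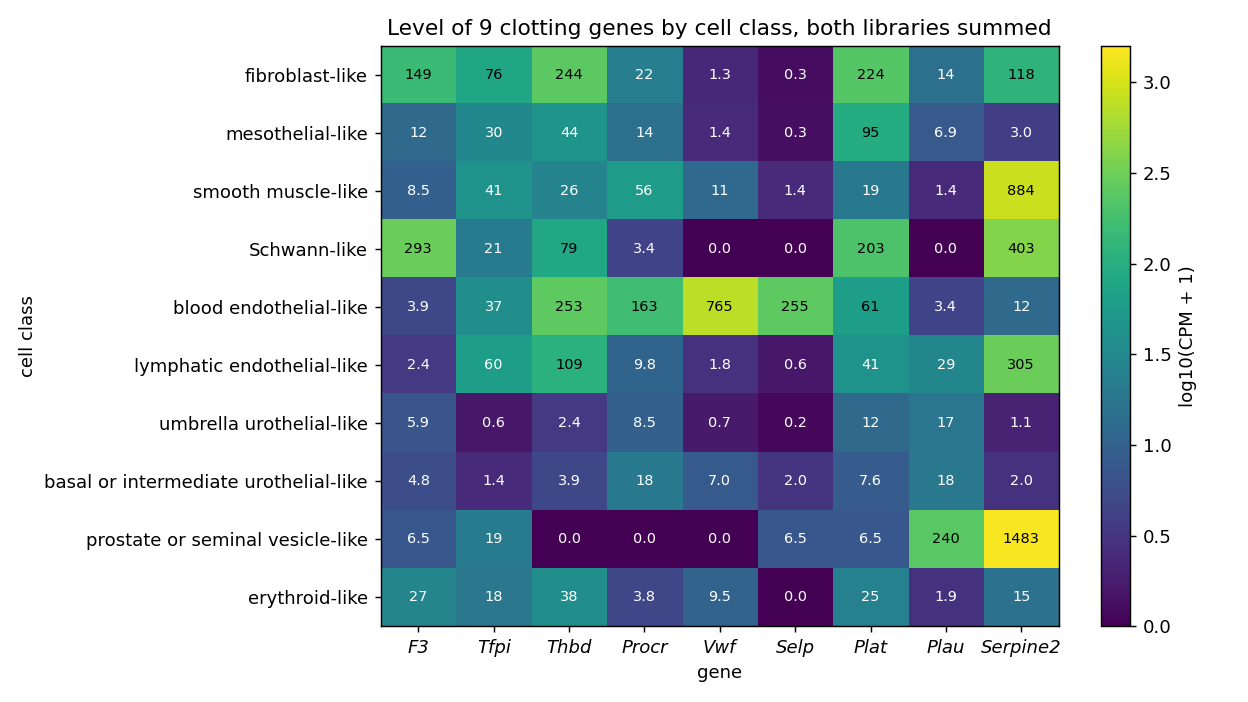
Level of the 9 genes (columns) in 10 cell classes (rows), in CPM with both libraries summed; colour gives log10(CPM + 1). Vwf and Selp stand out in blood endothelial-like cells (765 and 255 CPM), F3 in fibroblast-like and Schwann-like cells, Thbd in both fibroblast-like and blood endothelial-like cells, and Serpine2 in prostate or seminal vesicle-like and smooth muscle-like cells.

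F3 (ENSMUSG00000028128, chromosome 3, 121723537-121735048, plus strand, GRCm38) was a gene of the stroma. Fibroblast-like cells held 92.7% of its UMIs in Tom+ and 91.3% in Tom-. The highest level was in the 49 Schwann-like cells, all Tom-, at 293 CPM (234 to 362), above fibroblast-like cells at 149 CPM (146 to 152). Mesothelial-like cells had 11.9 CPM, and umbrella and basal or intermediate urothelial-like cells 5.92 and 4.78 CPM. Blood endothelial-like cells had no F3 UMI among 155 Tom+ cells and 24 UMIs among 665 Tom- cells, a level of 5.00 CPM in Tom-. By cells, 52.0% of fibroblast-like cells had an F3 UMI in Tom+ and 53.6% in Tom- (25.7% in Tom+ and 20.8% in Tom- when each cell was thinned to 2000 UMIs), against 0% in Tom+ and 3.16% in Tom- of blood endothelial-like cells.

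Fibroblast-like states were named by the marker set that each scored highest for, and the genes of that set are not always among the leading genes of the state. The Pi16/Scara5 state was led by Efhd1, Postn and Tmem100, the Cck/Wnt2/Cxcl14 state by Ednrb, Paqr6 and Chodl, and the smaller sub-cluster of the Car3/Dkk2/Tnc state by Gatm, Ptn and Cdkn2a. The larger sub-cluster of the Car3/Dkk2/Tnc state was led by Car3, Tagln and Tnc. Its leading genes included Tagln, Actg2 and Acta2 of the smooth muscle marker list. Among these states F3 formed a high and a low set. With both libraries summed, it was at 246 CPM (238 to 253) in the Car3/Dkk2/Tnc state, 235 CPM (225 to 245) in the Dner/Kcnn3/Gucy1a1 state and 225 CPM (214 to 236) in the Gdf10/Myoc/Penk state. Neighbours in that order have overlapping intervals. The Cck/Wnt2/Cxcl14 state had 83.7 CPM (78.3 to 89.3), the Pi16/Scara5 state 69.2 CPM (63.6 to 75.2), the Lsamp/Npy1r/Pex5l state 49.2 CPM (45.3 to 53.2) and the Dpp4/Sema3e/Smpd3 state 40.5 CPM (33.4 to 48.5). The lowest of the high set was thus well above the highest of the low set.

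Between libraries, F3 in fibroblast-like cells was at 201 CPM in Tom+ against 143 CPM in Tom-, for a ratio of 1.40 (1.32 to 1.49). That is under the size of 1.5 times used throughout to count a difference. In the Dner/Kcnn3/Gucy1a1 state F3 was at 324 CPM in Tom+ against 206 CPM in Tom-, 1.58 times as high (1.44 to 1.72). In the Gdf10/Myoc/Penk state it was at 283 CPM in Tom+ against 218 CPM in Tom-, for a ratio of 1.30 (1.13 to 1.497). The Car3/Dkk2/Tnc state had 269 CPM in Tom+ against 245 CPM in Tom- (ratio 1.10, 0.877 to 1.35), the Lsamp/Npy1r/Pex5l state 52.8 CPM in Tom+ against 48.7 CPM in Tom- (1.08), and the Pi16/Scara5 state 61.9 CPM in Tom+ against 69.9 CPM in Tom- (0.886). The intervals of these last 3 ratios include 1.

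The make-up of the class also differed. The Dner/Kcnn3/Gucy1a1 state made up 41.6% of the class in Tom+ and 16.0% in Tom-, and the Car3/Dkk2/Tnc state 4.03% in Tom+ and 20.7% in Tom-, both of them states high in F3. With the 2 clusters led by Car3, Dkk2 and Tnc left out (30 Tom+ and 1124 Tom- cells), the log2 ratio of F3 was 0.89, against 0.49 for the whole class and 0.29 as an equal-weight mean over 6 sub-clusters. Fibroblast-like cells were shallower in Tom+, with a median of 8134 UMIs and 11826 in Tom-.

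Tfpi (ENSMUSG00000027082, chromosome 2, 84432855-84476775, minus strand), the inhibitor of the tissue factor complex, was spread more evenly. It was at 75.8 CPM (73.7 to 77.9) in fibroblast-like cells, 59.7 CPM (48.5 to 72.8) in lymphatic endothelial-like cells, 37.0 CPM (32.3 to 42.1) in blood endothelial-like cells and 30.0 CPM (27.5 to 32.7) in mesothelial-like cells. The urothelial-like classes had 0.593 and 1.44 CPM. Within the blood vessels it was highest in venous-like cells, at 53.0 CPM (45.3 to 61.5), and lowest in arterial-like cells, at 8.10 CPM (2.63 to 18.9). Among fibroblast-like states, the Car3/Dkk2/Tnc state stood above the others at 117 CPM (112 to 123), and the other 6 named states lay between 49.4 and 70.0 CPM. That state was also in the high set for F3, the gene whose product Tfpi restrains. In fibroblast-like cells Tfpi was at 65.0 CPM in Tom+ against 76.8 CPM in Tom-, for a ratio of 0.846 (0.762 to 0.937), which became a log2 ratio of -0.05 with the clusters led by Car3, Dkk2 and Tnc left out.

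Thbd (ENSMUSG00000074743, chromosome 2, 148404466-148408188, minus strand) was at nearly the same level in blood endothelial-like and fibroblast-like cells, 253 CPM (240 to 266) and 244 CPM (240 to 248). Since fibroblast-like cells were many, they held 80.4% of its UMIs in Tom+ and 85.2% in Tom-. Lymphatic endothelial-like cells had 109 CPM (93.7 to 126) and mesothelial-like cells 44.1 CPM (41.0 to 47.3). Fibroblast-like cells had been set beforehand as the class that should lack Thbd. Since Thbd was high there, umbrella urothelial-like cells served as the low class instead, a choice made after seeing the levels. They had 2.41 CPM. A Thbd UMI was seen in 68.4% of Tom+ and 64.8% of Tom- blood endothelial-like cells (38.6% in Tom+ and 35.0% in Tom- when thinned), against 1.87% in Tom+ and 9.51% in Tom- of umbrella urothelial-like cells (0.314% in Tom+ and 0.802% in Tom- when thinned).

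Among blood endothelial-like subtypes Thbd was at 270 CPM (252 to 288) in venous-like cells and 255 CPM in capillary-like cells. It was at 234 CPM in the Esm1/Prdm1-led sub-cluster and 209 CPM (174 to 248) in arterial-like cells. The venous-like and arterial-like intervals do not overlap. Fibroblast-like states differed far more. The Pi16/Scara5 state had 845 CPM (825 to 866) and the Dpp4/Sema3e/Smpd3 state 744 CPM (713 to 776), both above every blood endothelial subtype. The Gdf10/Myoc/Penk state had 288 CPM, and the Dner/Kcnn3/Gucy1a1 and Lsamp/Npy1r/Pex5l states 205 and 193 CPM. The Cck/Wnt2/Cxcl14 and Car3/Dkk2/Tnc states were lowest, at 49.0 and 26.5 CPM. The Car3/Dkk2/Tnc state was therefore among the 3 highest in F3 and the lowest in Thbd, and the Pi16/Scara5 and Dpp4/Sema3e/Smpd3 states were high in Thbd and low in F3.

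**Figure D2:**
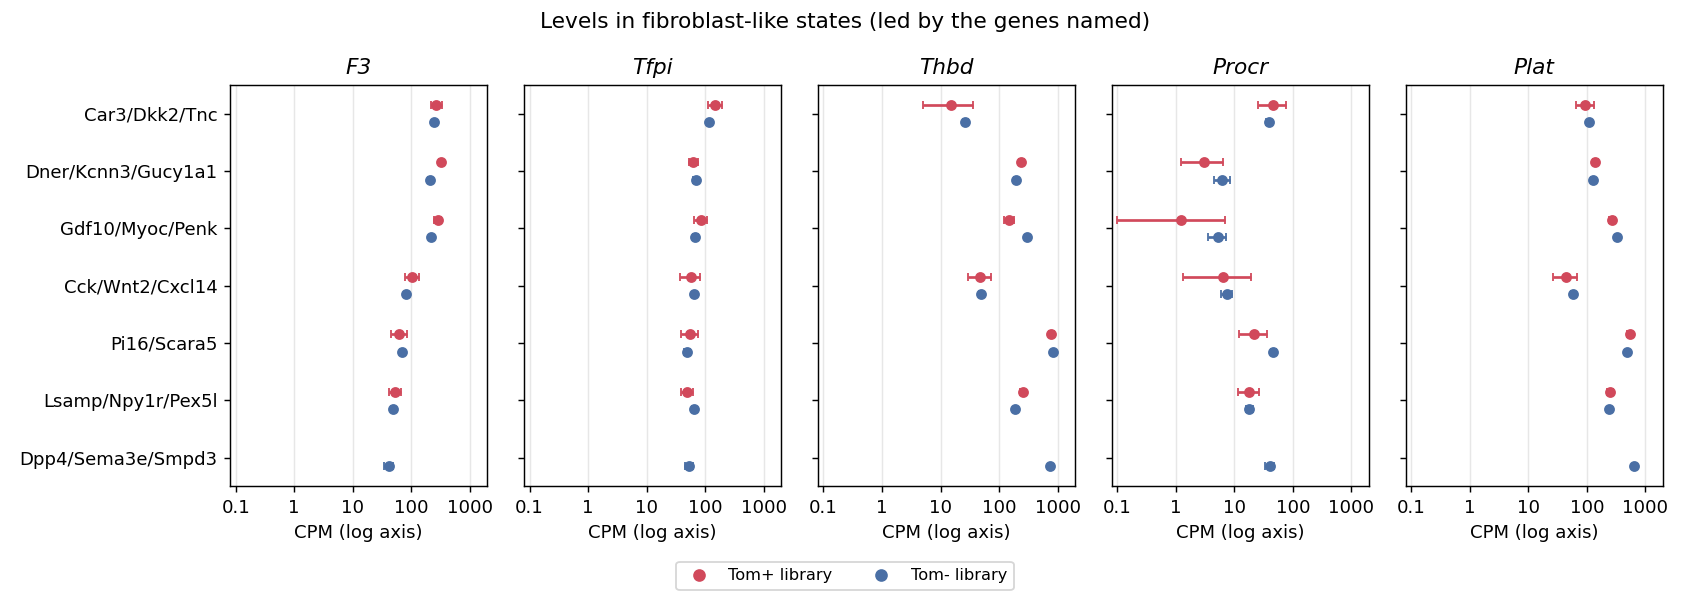
Level of F3, Tfpi, Thbd, Procr and Plat (panels, CPM on a log axis) in fibroblast-like states (rows, from high to low F3), with Tom+ in red above Tom- in blue and exact Poisson 95% intervals; groups of fewer than 20 cells are not drawn. F3 is highest in the upper 3 states and Thbd and Plat in the Pi16/Scara5 and Dpp4/Sema3e/Smpd3 states. Among other pairs, the libraries part for F3 in the Dner/Kcnn3/Gucy1a1 state, Thbd in the Gdf10/Myoc/Penk state and Procr in the Pi16/Scara5 state. For Procr, states where it was low in either library have wide intervals.

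Across the fibroblast-like class Thbd was at 274 CPM in Tom+ against 241 CPM in Tom- (ratio 1.13, 1.08 to 1.19), but its direction depended on the state. In the Gdf10/Myoc/Penk state Thbd was at 149 CPM in Tom+ against 305 CPM in Tom-, for a ratio of 0.488 (0.403 to 0.586). In the Lsamp/Npy1r/Pex5l state it was at 255 CPM in Tom+ against 185 CPM in Tom-, for a ratio of 1.38 (1.22 to 1.54). The Dner/Kcnn3/Gucy1a1 state had 242 CPM in Tom+ against 193 CPM in Tom- (1.26, 1.14 to 1.39) and the Pi16/Scara5 state 786 CPM in Tom+ against 851 CPM in Tom- (0.924, 0.845 to 1.01). The log2 ratio of the class was 0.18 and lay between -0.15 and -0.05 with the clusters led by Car3, Dkk2 and Tnc left out or with the stricter cell filter.

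In mesothelial-like cells Thbd was at 23.5 CPM in Tom+ against 45.4 CPM in Tom-, for a ratio of 0.518 (0.333 to 0.771). The class is made of 2 clusters that the libraries fill differently. Cluster 11, led by Prg4 and Trem2, had 66 Tom+ and 438 Tom- cells with 18.7 CPM in Tom+ against 30.7 CPM in Tom- of Thbd, and cluster 14, led by Saa3 and Cxcl5, had 18 Tom+ and 294 Tom- cells with 43.5 CPM in Tom+ against 60.4 CPM in Tom-. With shared barcodes kept the log2 ratio was -0.51 and no longer past the size counted.

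Procr (ENSMUSG00000027611, chromosome 2, 155751117-155755471, plus strand) was highest in venous-like cells, at 244 CPM (227 to 261), followed by arterial-like cells at 87.4 CPM (65.7 to 114), the Esm1/Prdm1-led sub-cluster at 81.9 CPM (67.7 to 98.1) and capillary-like cells at 40.1 CPM (27.3 to 56.9). The arterial-like and Esm1/Prdm1-led intervals overlap. Beyond the blood endothelium Procr was at 55.5 CPM in smooth muscle-like cells (Rgs5 and Notch3, which mark mural cells of vessels, were among their leading genes), 22.4 CPM in fibroblast-like cells and 18.4 CPM in basal or intermediate urothelial-like cells. A Procr UMI was seen in 68.9% of Tom+ and 71.4% of Tom- venous-like cells (32.1% in Tom+ and 33.3% in Tom- when thinned), against 25.2% in Tom+ and 20.9% in Tom- of the deeper umbrella urothelial-like cells (2.20% in Tom+ and 1.52% in Tom- when thinned).

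Procr had the lowest ratio of the measured members in fibroblast-like cells, at 10.7 CPM in Tom+ against 23.6 CPM in Tom-, for a ratio of 0.455 (0.350 to 0.582). It was the only 1 of 7 measured members (at least 10 CPM in 1 library and 20 UMIs over both) that was 1.5 times lower in Tom+, and none was 1.5 times higher, where 3.2% of all 8978 measured genes were as much lower and 1.94% as much higher. In the Pi16/Scara5 state it was at 21.6 CPM in Tom+ against 46.5 CPM in Tom-, for a ratio of 0.464 (0.257 to 0.777) from 15 UMIs in Tom+ and 344 in Tom-. In the Lsamp/Npy1r/Pex5l state it was at 17.8 CPM in Tom+ against 18.0 CPM in Tom- (0.989, 0.619 to 1.52), and in the Car3/Dkk2/Tnc state 45.8 CPM in Tom+ against 38.4 CPM in Tom- (1.19, 0.664 to 1.98). The Car3/Dkk2/Tnc state, scarce in Tom+, held 618 of the 1460 Procr UMIs of Tom- fibroblast-like cells and 15 of the 66 of Tom+. Without the clusters led by Car3, Dkk2 and Tnc the log2 ratio was -0.98, and it lay between -0.86 and -1.23 over the alternatives tried. The Dner/Kcnn3/Gucy1a1 state, 41.6% of the class in Tom+ and 16.0% in Tom-, was low in Procr. It had 3.07 CPM in Tom+ against 6.16 CPM in Tom-, too low to count as measured. The part of the make-up of the class in the Procr ratio was not tested.

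Vwf (ENSMUSG00000001930, chromosome 6, 125546774-125686679, plus strand) marked blood endothelium. Blood endothelial-like cells held 95.3% of its UMIs in Tom+ and 91.7% in Tom-, at 814 CPM in Tom+ against 751 CPM in Tom- (ratio 1.08, 1.01 to 1.16). The order among subtypes was venous-like at 940 CPM (907 to 975), Esm1/Prdm1-led at 796 CPM (750 to 843), arterial-like at 431 CPM (380 to 486) and capillary-like at 272 CPM (236 to 311), with no overlap of neighbouring intervals. Lymphatic endothelial-like cells had 3 Vwf UMIs in 282 cells, 1.83 CPM (0.377 to 5.34). In venous-like cells Vwf was at 871 CPM in Tom+ against 972 CPM in Tom-, for a ratio of 0.896 (0.827 to 0.969). The shares of venous-like cells with a Vwf UMI were 95.8% in Tom+ and 92.5% in Tom-, against 0.935% in Tom+ and 2.32% in Tom- of umbrella urothelial-like cells.

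A trace of Vwf was also counted in basal or intermediate urothelial-like cells, at 10.7 CPM in Tom+ against 6.35 CPM in Tom-, for a ratio of 1.69 (1.16 to 2.40). It made 1 of 3 measured members at least 1.5 times higher in Tom+ in that class, beside 1.36% of all measured genes, and none lower, beside 1.07%. The UMIs sat in few cells, 8 in Tom+ and 25 in Tom-. Cells with at least 5 UMIs over the 8 blood endothelial markers held 97.6% of the Vwf UMIs of the class in Tom+ and 92.3% in Tom-. Such cells were 7 of the 8 with Vwf in Tom+ and 14 of the 25 in Tom-, against 0 of 123 in Tom+ and 6 of 577 in Tom- without it. The direction reversed when predicted doublets were kept.

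Selp (ENSMUSG00000026580, chromosome 1, 164115264-164150026, plus strand) was the most restricted member. Venous-like cells had 475 CPM (452 to 500), arterial-like cells 14.6 CPM (6.66 to 27.7), the Esm1/Prdm1-led sub-cluster 3.50 CPM (1.14 to 8.16), and 131 capillary-like cells had no Selp UMI, which allows up to 4.77 CPM. Lymphatic endothelial-like cells had 1 UMI in 282 cells and fibroblast-like cells 19 UMIs in 5801. Of 6 platelet or megakaryocyte markers, 5 were at 0 in Tom+ venous-like cells and 4 in Tom-, and the list summed to 12.9 CPM in Tom+ against 9.02 CPM in Tom-. A Selp UMI was seen in 81.5% of Tom+ and 74.5% of Tom- venous-like cells (53.2% in Tom+ and 49.0% in Tom- when thinned) and in 0.312% in Tom+ and 0.696% in Tom- of umbrella urothelial-like cells. Of venous-like cells with Selp, 93 of 97 also had Vwf in Tom+ and 183 of 190 in Tom-. Without Selp, 21 of 22 had Vwf in Tom+ and 53 of 65 in Tom-. Cells without Selp were shallower, with a median of 5055.5 UMIs in Tom+ and 5141 in Tom-, against 8904 in Tom+ and 9792.5 in Tom- for those with it.

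Taken over all blood endothelial-like cells, Selp was at 319 CPM in Tom+ against 238 CPM in Tom-, for a ratio of 1.34 (1.19 to 1.498). Within venous-like cells the order turned round, with 404 CPM in Tom+ against 508 CPM in Tom-, for a ratio of 0.797 (0.710 to 0.893). Procr was also higher in Tom+ over the class, at 205 CPM in Tom+ against 152 CPM in Tom-, for a ratio of 1.35 (1.17 to 1.56). Within venous-like cells Procr did not turn round but was nearly level, at 241 CPM in Tom+ against 245 CPM in Tom-. That ratio was 0.985 (0.843 to 1.15). Venous-like cells made up 119 of 155 Tom+ and 255 of 665 Tom- blood endothelial-like cells. Thbd in venous-like cells was at 223 CPM in Tom+ against 291 CPM in Tom- (0.769, 0.658 to 0.896).

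The venous-like cells themselves formed 3 sub-clusters. In the largest by Tom+ cells (53 Tom+ and 87 Tom-) Selp was at 261 CPM in Tom+ against 229 CPM in Tom- (ratio 1.14, 0.879 to 1.47). In the second, with Atf3 and Fos among its leading genes (35 Tom+ and 96 Tom- cells), it was at 734 CPM in Tom+ against 821 CPM in Tom- (0.894, 0.768 to 1.04). In the third, with F8 and Cpe among its leading genes (31 Tom+ and 72 Tom- cells), it was at 254 CPM in Tom+ against 321 CPM in Tom- (0.792, 0.596 to 1.04). No interval of these 3 excludes 1, and the sub-cluster highest in Selp held 35 of 119 Tom+ and 96 of 255 Tom- venous-like cells. Vwf in the third was at 942 CPM in Tom+ against 1301 CPM in Tom- (0.724, 0.628 to 0.833), and Thbd in the second at 164 CPM in Tom+ against 272 CPM in Tom- (0.605, 0.439 to 0.819).

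**Figure D3:**
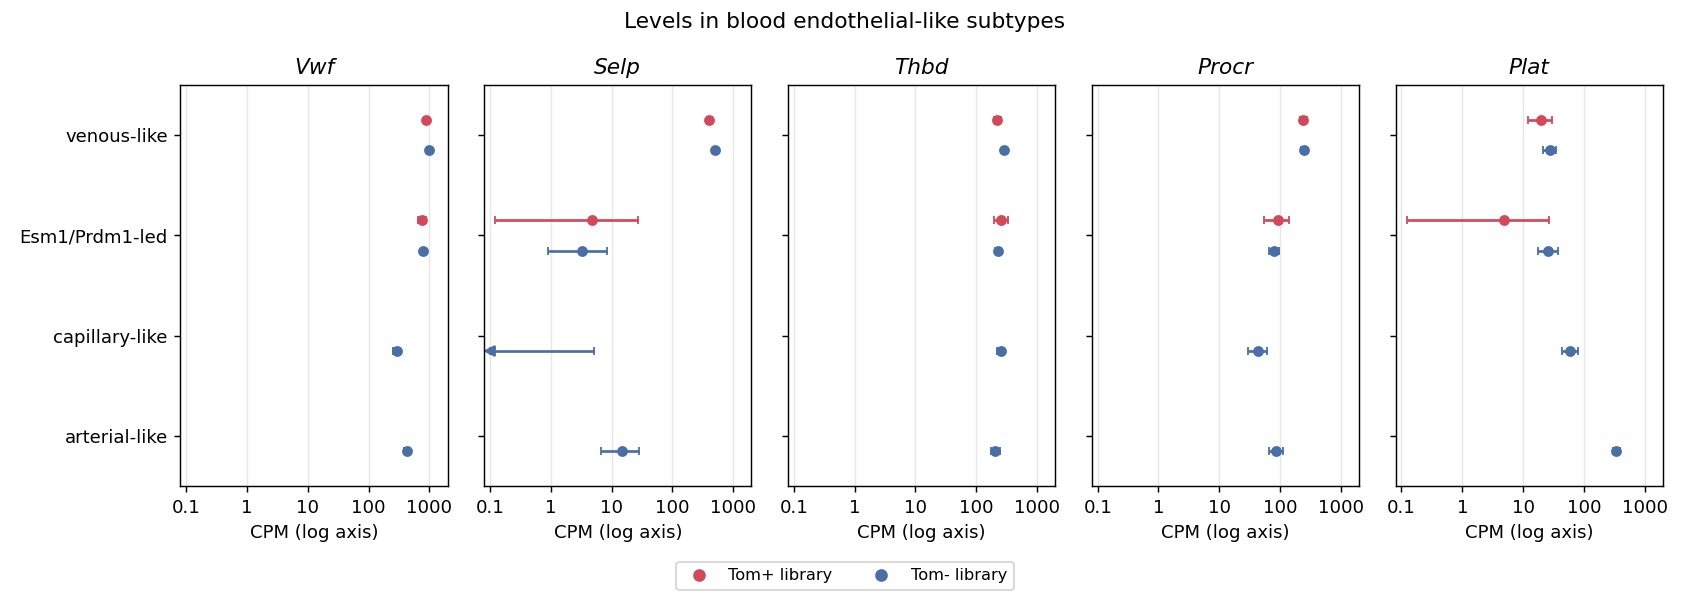
Level of Vwf, Selp, Thbd, Procr and Plat (panels, CPM on a log axis) in blood endothelial-like subtypes (rows), with Tom+ in red above Tom- in blue and exact Poisson 95% intervals; groups of fewer than 20 cells are not drawn, and the arrowhead marks 0 UMIs. Selp is highest in venous-like cells, against 14.6 CPM in arterial-like and 3.50 CPM in Esm1/Prdm1-led cells with both libraries summed, Procr is highest in venous-like cells and Plat in arterial-like cells, and the summed Thbd level lies between 209 and 270 CPM in each of the 4 subtypes.

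Plat (ENSMUSG00000031538, chromosome 8, 22757727-22782844, plus strand) was at 224 CPM (220 to 228) in fibroblast-like cells, 203 CPM (155 to 262) in Schwann-like cells, 95.5 CPM (90.9 to 100) in mesothelial-like cells, 61.3 CPM (55.2 to 67.8) in blood endothelial-like cells and 41.5 CPM (32.2 to 52.5) in lymphatic endothelial-like cells. The first 2 have overlapping intervals. A cluster left without a name, led by Ncam1 and Angptl7 (59 Tom+ and 200 Tom- cells), was higher than these classes, at 310 CPM in Tom+ against 304 CPM in Tom-. In the vessels Plat was arterial: 348 CPM (303 to 398) in arterial-like cells, 55.6 CPM (40.3 to 74.9) in capillary-like cells, 25.1 CPM (19.9 to 31.2) in venous-like cells and 23.1 CPM (15.9 to 32.4) in the Esm1/Prdm1-led sub-cluster. A Plat UMI was seen in 58.6% of fibroblast-like cells in Tom+ and 65.4% in Tom- (33.0% in Tom+ and 27.8% in Tom- when thinned), against 18.1% in Tom+ and 24.8% in Tom- of umbrella urothelial-like cells (1.57% in Tom+ and 2.81% in Tom- when thinned).

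Fibroblast-like states ran in nearly the same order for Plat as for Thbd, with the Dpp4/Sema3e/Smpd3 state at 633 CPM (605 to 663), the Pi16/Scara5 state at 499 CPM (483 to 514), the Gdf10/Myoc/Penk state at 327 CPM, the Lsamp/Npy1r/Pex5l state at 244 CPM, the Dner/Kcnn3/Gucy1a1 state at 130 CPM, the Car3/Dkk2/Tnc state at 110 CPM and the Cck/Wnt2/Cxcl14 state at 57.0 CPM. Over 19 classes, endothelial subtypes and fibroblast states with at least 50 cells, Plat and Thbd had the highest Pearson correlation of any pair of members, 0.780, on points that share libraries and cells of 1 mouse. Fibroblast-like cells as a class had 227 CPM in Tom+ against 224 CPM in Tom- (ratio 1.01, 0.959 to 1.07). In the Gdf10/Myoc/Penk state Plat was at 270 CPM in Tom+ against 335 CPM in Tom- (0.806, 0.699 to 0.927), in the Pi16/Scara5 state at 544 CPM in Tom+ against 494 CPM in Tom- (1.10, 0.987 to 1.22).

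In blood endothelial-like cells Plat had the lowest ratio of the measured members, at 20.2 CPM in Tom+ against 72.3 CPM in Tom-, for a ratio of 0.280 (0.180 to 0.417). It was the only 1 of 7 measured members at least 1.5 times lower there, and none was as much higher, where 10.3% of all 8916 measured genes were lower and 2.55% higher by that size. Arterial-like cells numbered 1 in Tom+ and 75 in Tom-. They held 5 of the 26 Plat UMIs of Tom+ blood endothelial-like cells and 210 of the 347 of Tom-. The part of this make-up in the class ratio was not tested. Within venous-like cells Plat was at 19.8 CPM in Tom+ against 27.5 CPM in Tom-, for a ratio of 0.718 (0.411 to 1.21), while the Esm1/Prdm1-led sub-cluster had 4.82 CPM in Tom+ against 26.2 CPM in Tom- (0.184, 0.00452 to 1.10) from 1 UMI in Tom+ and 32 in Tom-. The 10 capillary-like cells of Tom+ had no Plat UMI, against 60.2 CPM in Tom-. An equal-weight mean over the 3 venous-like sub-clusters, the ones with cells enough, was -0.49 on the log2 scale, against -1.79 for the class, and their log2 ratios ran from -1.58 to 0.83. The 8 fibroblast markers, genes of a class high in Plat, were also lower in Tom+ blood endothelial-like cells, at 177 CPM summed, against 943 CPM in Tom-. Their part in the ratio was not tested. Lymphatic endothelial-like cells had 26.7 CPM in Tom+ against 47.0 CPM in Tom- (0.568, 0.277 to 1.07), from 12 UMIs in Tom+ and 56 in Tom-. Plat was the only 1 of 5 measured members at least 1.5 times lower in that class and none was higher, beside 11.4% of all measured genes lower and 8.58% higher, and the fibroblast markers summed to 216 CPM in Tom+ against 1045 CPM in Tom-.

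Plau (ENSMUSG00000021822, chromosome 14, 20836660-20843385, plus strand) was low in every class with Tom+ cells enough to compare. It was at 17.3 CPM (16.2 to 18.3) in umbrella and 17.8 CPM (16.3 to 19.5) in basal or intermediate urothelial-like cells, 14.2 CPM (13.3 to 15.2) in fibroblast-like cells, 28.7 CPM (21.1 to 38.1) in lymphatic endothelial-like cells and 3.45 CPM (2.14 to 5.27) in blood endothelial-like cells. The highest level was 240 CPM (169 to 330) in prostate or seminal vesicle-like cells, from 37 UMIs in 107 cells. Among fibroblast-like states the Dpp4/Sema3e/Smpd3 state stood apart at 81.3 CPM (71.2 to 92.4), the next being the Gdf10/Myoc/Penk state at 22.7 CPM (19.4 to 26.5). Plau was the only member of which umbrella urothelial-like cells held most UMIs in Tom+, 55.4%, while in Tom- they held 35.0% and fibroblast-like cells 38.1%. Its ratio was 1.16 (0.991 to 1.34) in umbrella urothelial-like cells, at 19.4 CPM in Tom+ against 16.8 CPM in Tom-, and 0.772 (0.595 to 0.987) in fibroblast-like cells, at 11.2 CPM in Tom+ against 14.5 CPM in Tom-.

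Serpine2 (ENSMUSG00000026249, chromosome 1, 79794197-79861180, minus strand) had its highest levels in classes found almost entirely in Tom-. Prostate or seminal vesicle-like cells, with secretory genes such as Svs2 and Pate4 in the lead and a median of 1309 UMIs, had 1483 CPM, smooth muscle-like cells 884 CPM (816 to 956) and Schwann-like cells 403 CPM (333 to 483). Among the classes compared, lymphatic endothelial-like cells were highest at 305 CPM (279 to 333), with 254 CPM in Tom+ against 324 CPM in Tom- (ratio 0.782, 0.629 to 0.966). A Serpine2 UMI was seen in 55.1% of Tom+ and 66.3% of Tom- lymphatic endothelial-like cells (30.8% in Tom+ and 40.2% in Tom- when thinned) and in 0% in Tom+ and 4.56% in Tom- of umbrella urothelial-like cells. Blood endothelial-like cells had 11.7 CPM (9.11 to 14.7), so the 2 kinds of endothelium differed in Serpine2 as they did, in the other direction, in Vwf.

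Fibroblast-like cells had 145 CPM of Serpine2 in Tom+ against 115 CPM in Tom-, for a ratio of 1.26 (1.17 to 1.35). Of the 7 named states, 6 lay between 114 and 168 CPM and the Car3/Dkk2/Tnc state was at 43.5 CPM (40.3 to 46.8). In the Dner/Kcnn3/Gucy1a1 state the levels were 155 CPM in Tom+ against 141 CPM in Tom- (1.10, 0.971 to 1.24), and in the Lsamp/Npy1r/Pex5l state 190 CPM in Tom+ against 165 CPM in Tom- (1.15, 1.01 to 1.31). With the clusters led by Car3, Dkk2 and Tnc left out the log2 ratio of the class was 0.11, against 0.33 with them.

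The plot of ratios sets the libraries against each other in all 6 classes. Of 30 pairs of a member and a class that were measured, 1 was at least 1.5 times higher in Tom+ and 4 at least 1.5 times lower. By class, the share of all measured genes past that size ran from 0.0534% to 8.58% higher and from 0.441% to 11.4% lower. The higher pair was Vwf in basal or intermediate urothelial-like cells, and the lower pairs were Procr in fibroblast-like, Plat in blood and lymphatic endothelial-like and Thbd in mesothelial-like cells. In mesothelial-like cells 1 of 5 measured members was lower and none higher, beside 5.83% of all measured genes lower and 5.89% higher. In umbrella urothelial-like cells none of 3 measured members passed either size, beside 0.441% of genes lower and 0.0534% higher. The median log2 ratio of the measured members was 0.02 in fibroblast-like cells and 0.11 in blood endothelial-like cells, beside -0.02 and -0.10 for all measured genes.

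**Figure D4:**
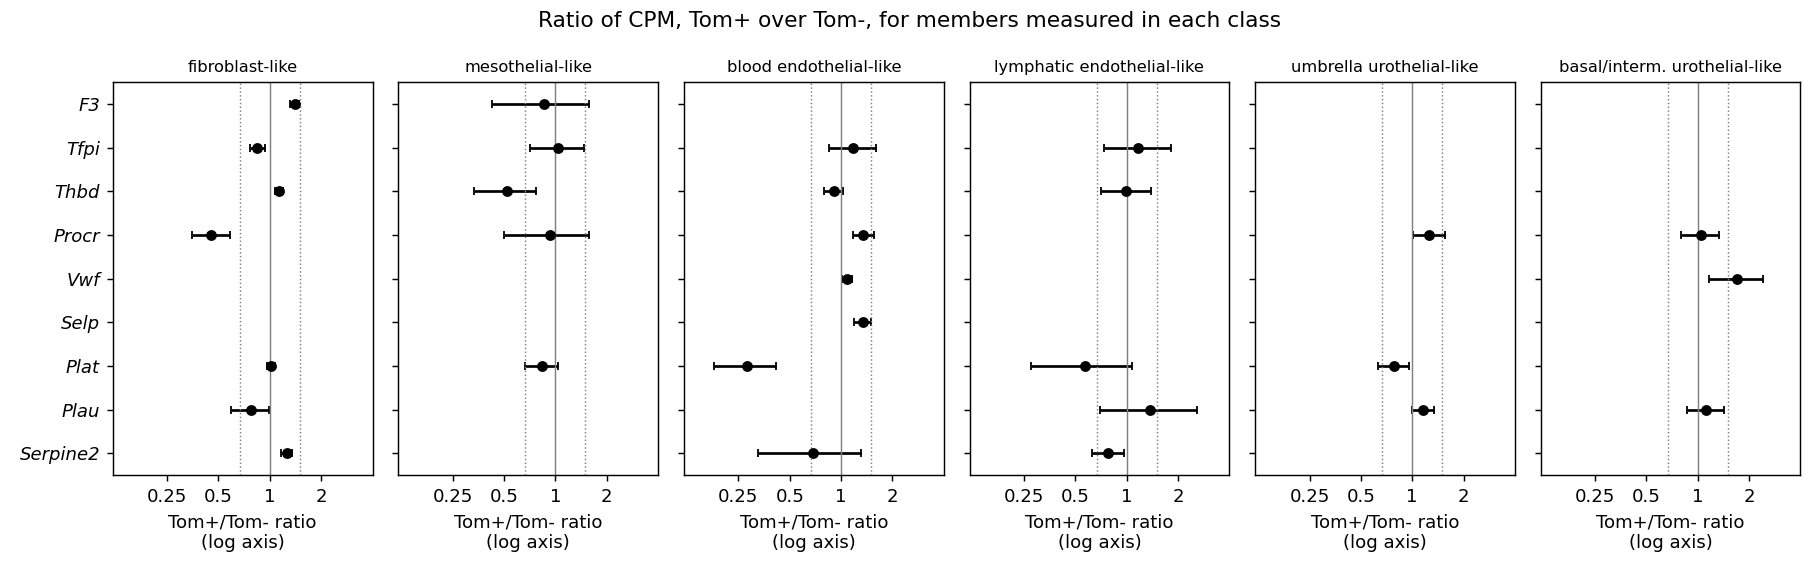
Ratio of CPM in Tom+ over Tom- (log axis) for the members measured in each of 6 classes (panels), with exact conditional binomial 95% intervals; the solid line is 1 and the dotted lines are 1.5 times either way. Most ratios lie between the dotted lines; Procr in fibroblast-like cells (0.455) and Plat in blood endothelial-like cells (0.280) lie below with their whole intervals.

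Beyond the 9, a list of 49 other genes of clotting, fibrinolysis and the vitamin K cycle was counted. In fibroblast-like cells 15 were measured and none was 1.5 times different on the log2(CPM + 1) scale, with a median log2 ratio of -0.02. Of all measured genes in that class, 1.94% were as much higher and 3.2% as much lower. The lowest ratio there was that of Gas6, a vitamin K-dependent ligand of receptor kinases, at 338 CPM in Tom+ against 507 CPM in Tom- (0.666, 0.637 to 0.697), which lies at that size without the added 1 CPM. The highest was that of Lrp1, a receptor that clears protease and inhibitor complexes, at 688 CPM in Tom+ against 553 CPM in Tom- (1.24, 1.20 to 1.28). None of the 15 plasma clotting factors on the list was measured in fibroblast-like cells, and F8 alone was measured in blood endothelial-like cells, at 34.2 CPM in Tom+ against 43.7 CPM in Tom-.

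In blood endothelial-like cells 18 of the 49 were measured, 1 was 1.5 times higher, 2 were as much lower, and the median log2 ratio was -0.07, beside the 2.55% of all measured genes higher and 10.3% lower in that class. F2r, the thrombin receptor, was at 20.2 CPM in Tom+ against 12.5 CPM in Tom- (1.62, 0.980 to 2.60), and its ratio was 1.29 with shared barcodes kept. Lrp1 was at 3.11 CPM in Tom+ against 12.7 CPM in Tom- (0.245, 0.0647 to 0.660), beside the lower fibroblast markers given above. From 4 UMIs in Tom+ and 61 in Tom-, that ratio was unsteady, at 0.607 with shared barcodes kept, 0.485 at the lower clustering resolution, 0.138 with the stricter cell filter and 0.0656 with doublets kept. Cd63, a protein of the granules that hold Vwf, was at 56.0 CPM in Tom+ against 84.6 CPM in Tom- (0.662, 0.508 to 0.853). Its ratio was 0.829 with shared barcodes kept and 0.377 with doublets kept. With both libraries summed, Cd63 was at 921 CPM in fibroblast-like cells, against 78.5 CPM in blood endothelial-like cells. The part of the lower fibroblast markers in the Cd63 ratio was not tested.

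The genes most like each member over the 19 groups, by Pearson correlation of log levels, differed for every member. They were Syt15 for Vwf (0.986), Slc43a3 for Thbd (0.965), C230004F18Rik for F3 (0.949), Dram1 for Plat (0.944), Zfp9 for Tfpi (0.933), B3gnt6 for Selp (0.919), Pitpnm2 for Procr (0.865), Sv2c for Serpine2 (0.856) and C2cd4d for Plau (0.780). The groups are cells of the same libraries and mouse, so the values describe likeness of pattern in these cells alone.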

How the data were processed

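The deposited files hold raw counts of UMIs per gene and barcode, made with Cell Ranger 7.0.0 on mm10 per the submitters' processing notes; the matrix header names version 3.0.2. The feature names (gene symbols and a reporter) and barcodes are in other deposited columns. Barcodes with at least 1000 UMIs, 500 genes and under 15% mitochondrial UMIs were kept, doublets predicted by Scrublet (10 in Tom+, 690 in Tom-) and barcodes found in both libraries were dropped, and cells were clustered with scanpy 1.11.5 (2000 variable genes without the 9 members and the 49 listed genes, 30 components, 15 neighbours, Leiden resolution 1, sub-clusters at 0.5). Names come from marker lists. The members, lists and marker choices were made with earlier results of these data known, among them to count clusters led by Car3, Dkk2 and Tnc as fibroblast-like. UMIs were summed per class and library and scaled to CPM. Ratios use log2(CPM + 1) for counting at 1.5 times, where both libraries had 50 cells or more of the class. With 1 library a group there was no test. The cell filter, doublet and barcode handling, scaling (edgeR 4.0.16 TMM), weighting, free RNA, pseudocount and resolution were varied. The stricter cell filter asked for at least 2000 UMIs, 1000 genes and under 10% mitochondrial UMIs. All 9 members are named, and of the 49 other genes those with the highest and lowest ratio or a difference of 1.5 times in fibroblast-like or blood endothelial-like cells. The steps were tested on simulated data. Positions follow the GENCODE annotation of GRCm38. Droplet counts read a gene near its 3′ end, so levels of different genes are not compared.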

Additional observations from a re-analysis of the deposited data

How the results depend on the processing

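Of 294 log2 ratios of a member in a class under an alternative, 261 stayed within the counting interval of the value given, 32 moved out of it, and 1 whose value given was at least 1.5 times different changed sign: Vwf in basal or intermediate urothelial-like cells was at -0.97 with doublets kept. Among smaller differences whose interval excluded 1, another 4 values changed sign: Thbd in fibroblast-like cells, at -0.05 with the stricter cell filter and -0.15 with the clusters led by Car3, Dkk2 and Tnc left out, and Vwf at -0.17 and Selp at -0.10 in blood endothelial-like cells as a sub-cluster mean. With shared barcodes kept, 3 of 28 ratios left their interval: Plat in fibroblast-like (0.14) and mesothelial-like cells (0.13) and Vwf in blood endothelial-like cells (0.00). Of 36 levels under an alternative, 26 stayed and 10 moved, and of 18 shares 1 stayed and 17 moved. Of 136 counts of members at least 1.5 times different, 106 stayed and 30 moved. In fibroblast-like cells the count higher was 1 (F3) with the stricter cell filter and with the clusters led by Car3, Dkk2 and Tnc left out, against 0, and the count lower was 2 with no filter on low values and as a sub-cluster mean and 0 at a filter of 50 CPM, against 1. In blood endothelial-like cells the count higher was 2 with equal weight per cell, against 0, and the count lower was 2 with no filter on low values, with shared barcodes kept, at resolution 0.5 and with equal weight per cell, and 3 with doublets kept, against 1. In lymphatic endothelial-like cells the count lower was 2 with no filter or with doublets kept and 0 at 50 CPM, against 1. In umbrella urothelial-like cells it was 3 with no filter or doublets kept, against 0. In basal or intermediate urothelial-like cells the count higher was 0 with a pseudocount of 5 CPM, at 50 CPM, with the stricter cell filter, with doublets kept and with shared barcodes kept, against 1, and the count lower was 1 with no filter or doublets kept, against 0. In mesothelial-like cells the count higher was 2 with no filter, 1 with doublets kept and 1 at resolution 0.5, against 0, and the count lower was 3 with no filter, 2 with doublets kept, and 0 at 50 CPM and with shared barcodes kept, against 1. The count of fibroblast-like cells without shallow and small sub-clusters, an alternative chosen after seeing the data, did not move. The cause of these moves was not tested. The TMM factor of Tom+ over Tom- lay furthest from 1 in blood endothelial-like cells, at -0.09 on the log2 scale. CPM is divided by the factor, so a factor below 1 raises the Tom+ over Tom- ratio. No paired analysis was possible because each group is 1 library. All values rest on 1 mouse, and differences between libraries cannot be told apart from differences between 2 library preparations.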
